A study of Mus musculus with 4 samples.

Results

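Klf2, Klf4 and Klf5 encode Krüppel-like factors, zinc-finger transcription factors that bind GC-rich sites such as CACCC boxes. In mouse embryonic stem cells the 3 proteins act redundantly to keep cells in the undifferentiated state, and Klf4, which is also used to reprogram somatic cells, is a known target of the LIF and STAT3 pathway. The genomic sites described here are peaks of a Flag-tagged fusion of Isl1 and Lhx3, LIM-homeodomain factors that together specify motor neurons and bind AT-rich sites with a TAAT core. A peak was counted for one of the 3 genes when its maximum had that gene's transcription start as the nearest protein-coding start (GENCODE M1, mouse build mm9). This gave 8 peaks in 7 regions, of 2454 nuclear peaks in 2301 regions, and each of the 3 genes had at least 1.

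The peaks come from Flag ChIP-seq in iMN-ESCs, mouse embryonic stem cells of the A172LoxP line with a Dox-inducible Flag-Isl1-Lhx3 transgene, which all 4 libraries carry. There were 2 libraries with Dox at 2 µg/mL and 2 without, in 2 numbered sets, and whether a set was a separate culture is not stated in the labels. In both groups embryoid bodies were kept in 0.5 µM retinoic acid for 2 days. Retinoic acid then continued for 4 days together with Dox or without it, and LIF (1000 units/mL) was present over the final 16 hours. The authors deposited 1 list for the series, with a ChIP score, a background score and a tag count per region. It has no column per library, so the depth of each library is unknown, no difference between Dox groups could be computed for any Klf gene, and the cells could not be checked against marker genes. The scores are the authors' values with no stated scale, and the sources do not say which reads the background score counts.

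The 8 peaks were spread unevenly over the 3 genes: 5 for Klf5, 2 for Klf4 and 1 for Klf2. All 8 lay in intergenic sequence, where 50.8% of all nuclear peaks lay, and all 8 were more than 10 kb from the start, as were 67% of all nuclear peaks. Klf2 (chromosome 8, 74842932 to 74845555, plus strand) had its peak 14.5 kb downstream of the start. Klf4 (chromosome 4, 55540013 to 55545347, minus strand) had a peak 54.2 kb downstream of the nearest of its 4 annotated starts, which is 54.9 kb from the outermost one, and another 397 kb upstream. Klf5 (chromosome 14, 99697910 to 99712624, plus strand) had peaks only downstream, at 41.3, 41.5, 50.4, 55.5 and 212 kb. A distance over 100 kb was thus found at 2 of the 8 peaks, against 18.5% of all nuclear peaks. The 3 genes were chosen by the presence of listed peaks near them, so these positions and counts are a description and carry no test.

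**Figure D1:**
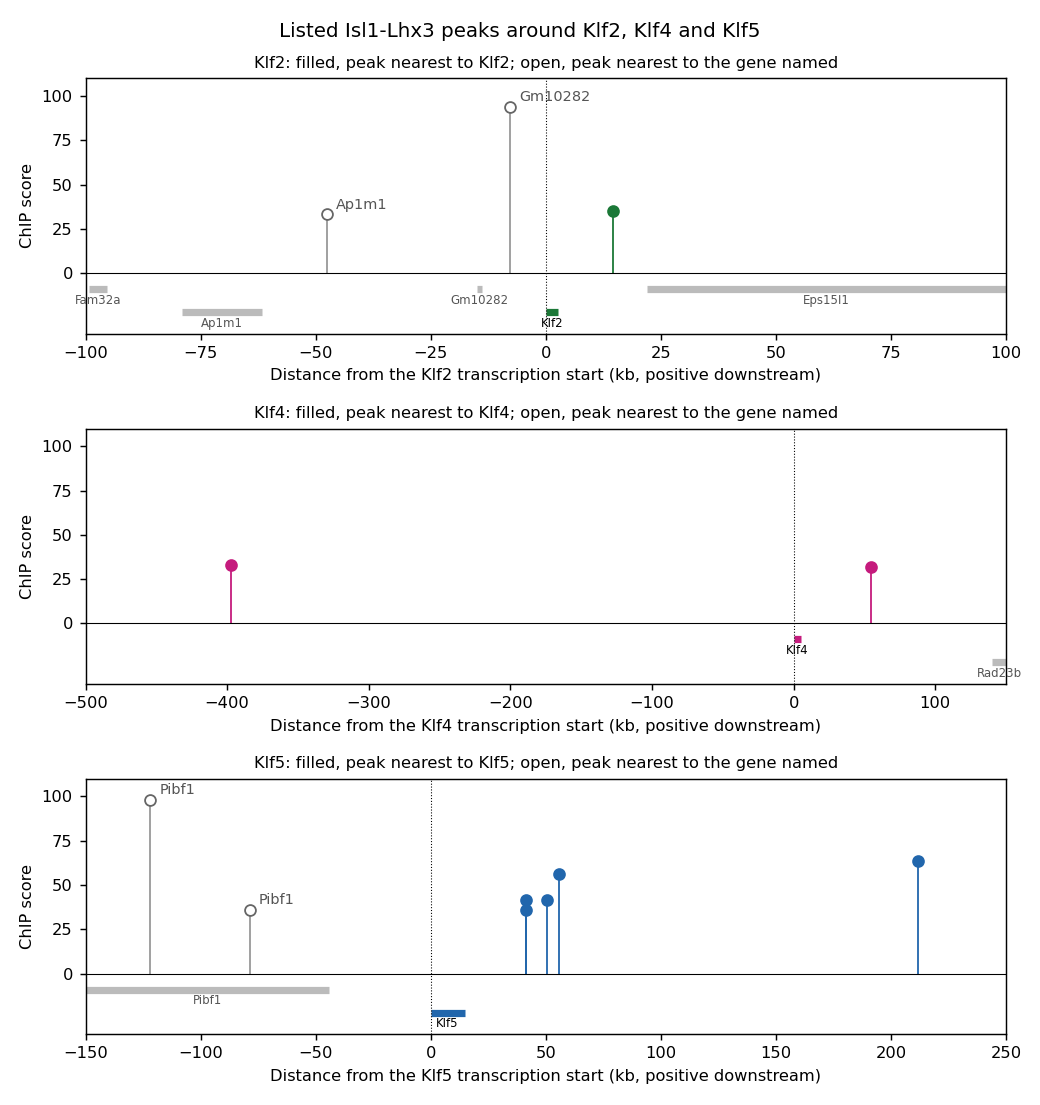
Listed peaks around each gene, with the ChIP score on the vertical axis and the distance from the gene's outermost transcription start in kb on the horizontal axis. Filled points are peaks counted for the Klf gene, open points are peaks whose nearest protein-coding start belongs to the gene named, and bars are protein-coding gene bodies. The tallest point beside Klf2, at 7.75 kb upstream with a score of 93.94, goes to Gm10282, and the 5 Klf5 points all stand downstream of the gene.

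The sequences that follow are the 200 bp around the maxima that the comparison of sequence turns on: the single Klf2 peak, the stronger peak next to it that the nearest-start rule gives to a neighbour, both Klf4 peaks, the Klf5 peak with the TAATTA core closest to its maximum, and the strongest Klf5 peak. They are read from the mm9 genome sequence, 5′ to 3′, and capitals mark every TAAT or ATTA core.
Klf2 at 14.5 kb downstream, chr8:74857373-74857572, plus strand: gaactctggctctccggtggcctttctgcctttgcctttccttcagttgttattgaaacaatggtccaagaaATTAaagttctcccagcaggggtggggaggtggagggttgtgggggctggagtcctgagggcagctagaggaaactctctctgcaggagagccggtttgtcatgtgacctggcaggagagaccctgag
Klf2 at 7.75 kb upstream, nearest to Gm10282, chr8:74835079-74835278, plus strand: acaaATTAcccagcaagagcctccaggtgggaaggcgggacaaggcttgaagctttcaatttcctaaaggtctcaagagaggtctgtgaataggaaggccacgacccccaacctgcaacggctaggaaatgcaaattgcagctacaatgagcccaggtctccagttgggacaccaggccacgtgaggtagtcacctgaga
Klf4 at 54.2 kb downstream, chr4:55490361-55490560, plus strand: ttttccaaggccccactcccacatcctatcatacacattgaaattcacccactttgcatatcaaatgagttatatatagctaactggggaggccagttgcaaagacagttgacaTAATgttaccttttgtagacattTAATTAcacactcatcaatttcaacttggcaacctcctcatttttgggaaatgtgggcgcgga
Klf4 at 397 kb upstream, chr4:55942358-55942557, plus strand: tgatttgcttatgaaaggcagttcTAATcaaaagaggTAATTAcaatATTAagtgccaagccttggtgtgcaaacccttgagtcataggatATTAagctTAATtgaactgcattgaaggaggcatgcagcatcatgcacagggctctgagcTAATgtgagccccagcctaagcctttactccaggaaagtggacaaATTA
Klf5 at 41.5 kb downstream, chr14:99739325-99739524, plus strand: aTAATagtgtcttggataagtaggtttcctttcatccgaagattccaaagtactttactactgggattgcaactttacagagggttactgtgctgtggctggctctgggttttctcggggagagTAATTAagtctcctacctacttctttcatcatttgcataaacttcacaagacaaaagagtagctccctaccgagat
Klf5 at 212 kb downstream, chr14:99909415-99909614, plus strand: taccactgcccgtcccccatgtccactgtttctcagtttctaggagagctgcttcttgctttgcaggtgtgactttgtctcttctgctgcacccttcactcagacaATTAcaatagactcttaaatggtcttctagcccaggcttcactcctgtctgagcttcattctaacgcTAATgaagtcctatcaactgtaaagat
The Klf4 upstream window holds 8 such cores, counted with overlaps, and the 2 windows beside Klf2 hold 1 each.

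At Klf2, the listed peak was weak and a stronger one lay just outside the rule. The Klf2 peak (chromosome 8, 74857224 to 74857723) had a ChIP score of 35.33 and 19 tags (11.4 to 29.7, a 95% Poisson interval), with the background score at 0. It ranked 1691 of 2454 by score, and 29.7% of nuclear peaks scored lower. The next protein-coding start, that of Gm10282, was 28.3 kb away, and by gene body Eps15l1 was nearer. On the other side of Klf2, a peak at 7.75 kb upstream (chromosome 8, 74834930 to 74835429) had a score of 93.94 and 70 tags (54.6 to 88.4), with the background score at 0.68. It ranked 150, higher than any of the 8 peaks of the Klf genes. It is not counted for Klf2 because the start of Gm10282 was 6.02 kb away, and that gene is protein-coding in GENCODE M1 but listed as a pseudogene in the RefSeq table of GRCm38.p6. Without Gm10282, a choice made once the values were known, Klf2 had 2 peaks. Of 8 peaks within 1 Mb of the Klf2 start, 7 went to other genes.

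At Klf4, both peaks were close to the lowest scores in the list. The peak 54.2 kb downstream (chromosome 4, 55490212 to 55490711) had a score of 31.58 and 20 tags (12.2 to 30.9), with the background score at 0. The peak 397 kb upstream (chromosome 4, 55942209 to 55942708) had a score of 33.19 and 13 tags (6.92 to 22.2), with the background score at 1.55. The tag intervals of these peaks overlap each other and that of the Klf2 peak. The lowest score in the list was 29.98, and 9.54% and 19.7% of nuclear peaks scored lower than the downstream and the upstream peak. By tags, 17.0% and 0.448% of nuclear peaks were lower, in the same order. No other listed peak lay within 1 Mb of Klf4, and the next protein-coding start, that of Rad23b, a nucleotide excision repair gene, was 127 kb from the downstream peak and 579 kb from the upstream one. Both peaks were absent from the 50% of the list with the highest scores.

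At Klf5, a group of peaks lay downstream of the gene and a stronger single one lay farther out. The region at 41.3 kb (chromosome 14, 99738337 to 99740227) was 1891 bp wide, against a median of 480 bp over all nuclear peaks, and had 2 maxima 249 bp apart. These maxima had scores of 36.13 and 41.75, and share the region's count of 111 tags (91.3 to 134). Both maxima ranked 90 by tags among all nuclear peaks, each taken with its region's tags, although they ranked 1604 and 1161 by score. The region held 58.7 tags per kb, fewer than the 88.1 and 110 of the narrower regions at 50.4 and 55.5 kb. The peak at 50.4 kb (chromosome 14, 99748041 to 99748540) had a score of 41.49 and 26 tags (17.0 to 38.1). The peak at 55.5 kb (chromosome 14, 99753195 to 99753694) had 56.47 and 34 tags (23.5 to 47.5). The strongest of the 8 peaks lay 212 kb downstream (chromosome 14, 99909266 to 99909765), with a score of 63.43, 59 tags (44.9 to 76.1) and rank 391. By score, 4 of the 8 peaks were in the upper 50% of the list (50.5% of nuclear peaks, because of ties), and all 4 were Klf5 peaks. The 8 scores had a median of 38.81, against 40.95 over all nuclear peaks.

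The Klf5 peaks nearer to the gene lay close together, and the one at 212 kb stood alone. The 4 peaks between 41.3 and 55.5 kb spanned 14.3 kb in 3 separate regions. Having at least 2 other regions within 15 kb was the case for these 4 peaks and for 2.36% of all nuclear peaks. The 5 peaks of Klf5, which lie in 4 regions, put it among the 0.0849% of protein-coding genes with at least 5 (19 of 22367). This is a count of maxima, in which the 2 maxima of 1 Klf5 region count separately. The 2 of Klf4 put that gene among the 1.86% with at least 2. At least 1 peak was found for 8.16% of protein-coding genes.

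The 3 genes differ in how much sequence they can receive peaks from. The sequence nearer to a start of Klf5 than to any other protein-coding start was 487 kb, larger than for 95.3% of genes, and for Klf4 it was 696 kb. For Klf2 it was 47.9 kb, larger than for 51.6% of genes. In the 10% of genes with the largest such sequence, to which Klf4 and Klf5 belong, 26.5% had a peak, and 12 of 2234 had as many as Klf5. In the 10% of genes of a size that holds Klf2, 5.91% had one. Per Mb of this sequence Klf2 had 20.9 peaks, Klf5 10.3 and Klf4 2.87, and these figures rest on 1, 5 and 2 peaks. The genome as a whole had 0.924 per Mb. The genes were chosen for their peaks, and 1 peak alone gives 20.9 per Mb in the Klf2 sequence. The rates were not tested against that of the genome, and with genes chosen in this way they cannot show enrichment.

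The next neighbours of the Klf5 peaks stood well apart. Pibf1, which lies upstream of Klf5, was the next protein-coding gene of each of the 5 peaks, with its start 164 kb away at the nearest and 334 kb at the farthest. The closest peak that the rule gives away lay 78.7 kb upstream of Klf5, in an intron of Pibf1, with a score of 36.13 and a background score of 0. A stronger one at the same internal Pibf1 start, 122 kb upstream of Klf5, had a score of 98.23. The peak at 78.7 kb also goes to Pibf1 by this start, which was 43.6 kb from it. On the distal side the next peak was 596 kb from Klf5, with a score of 31.31, and went to Klf12. With noncoding genes included, U2 and U1 small nuclear RNA genes took all 5 Klf5 peaks, the nearest at 2.06 kb, and SNORA17 and Gm12519 took those of Klf4. Only the Klf2 peak then stayed with its gene.

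The background score took a larger share of the ChIP score at 4 of the 5 Klf5 peaks than at any Klf2 or Klf4 peak. It was 16.8%, 3.52%, 7.28%, 6.57% and 11.1% of the ChIP score at the Klf5 peaks, in order of distance. It was 0% at the Klf2 peak, and 0% and 4.67% at the Klf4 peaks. A background score over 10% of the ChIP score was found at 2 of the 8 peaks, both of Klf5, against 5.42% of nuclear peaks, and a background score of 0 at 2 of the 8, against 31.1%. The same direction was present across chromosome 14: its 181 peaks other than those of Klf5 had a median of 2.86%, with 20 over 10%, against a median of 0.597% on the other chromosomes, with 111 of 2268 over 10%. Chromosome 14 had the highest median of 20 chromosomes with peaks. The 7 peaks of other genes within 1 Mb of Klf5 had a median of 2.98%, with 2 over 10%. The 3 peaks of Klf12 on the same chromosome had 11.7% to 14.2%, and the Klf12 peak with 13.8% is also among these 7. Of the 13 peaks of other Klf and Sp genes, 5 were over 10% and 6 had a background score of 0. The 5 were the Klf12 peaks, the Klf7 peak on chromosome 1 (15.4%) and the Sp4 peak on chromosome 12 (11.4%). The part of the chromosome in the Klf5 values was not tested. With the background score subtracted, the peak at 41.3 kb ranked 2274 in place of 1604, and that at 212 kb ranked 503 in place of 391.

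**Figure D2:**
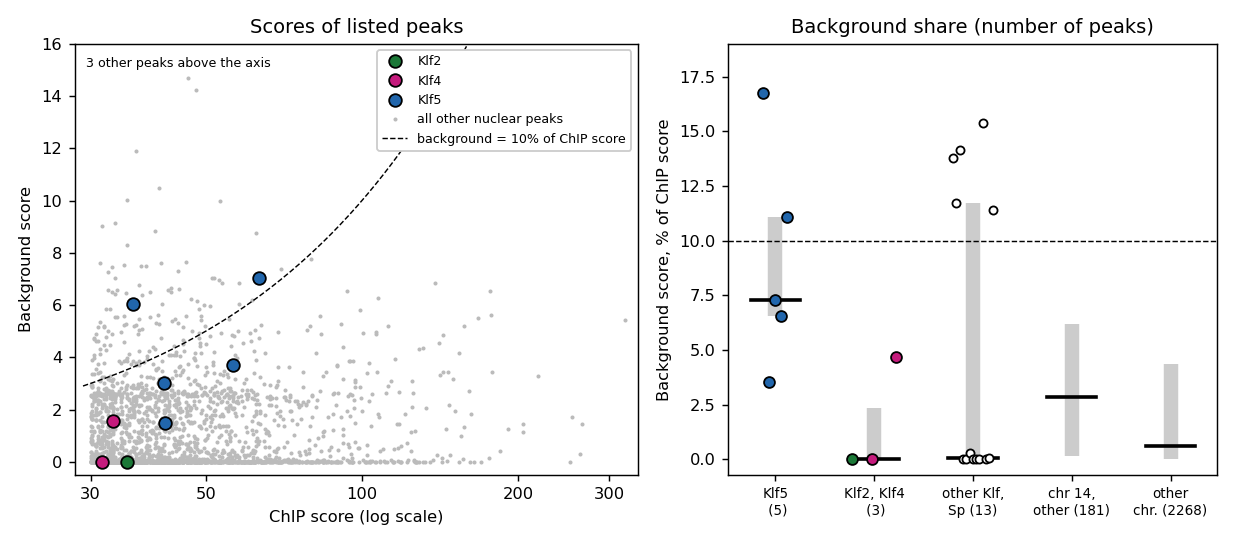
The left panel plots the background score against the ChIP score (log axis) of nuclear peaks, with the Klf peaks in colour. A dashed line marks where the background is 10% of the ChIP score. Other peaks with a background score above the axis limit are counted in the panel and not drawn. The right panel plots the background as a percentage of the ChIP score, with points for single peaks, black lines for medians and grey bars for the range from the 25th to the 75th percentile. All 5 Klf5 points lie above the 0.597% median of the other chromosomes, and 2 lie above 10%.

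Homeodomain cores were present at every one of the 8 peaks. Matches were sought on both strands of 200 bp around the maximum, in which TAAT is the reverse complement of ATTA and TAATTA holds both. ATTA was in 8 of 8 windows, against 94.2% of nuclear peaks and 66.7% of 200 bp flanks 1 kb away. A core lay within 30 bp of the maximum at 8 of 8 peaks, against 71.4% of nuclear peaks, at distances from 0.5 bp at the upstream Klf4 peak to 26.5 bp at the Klf2 peak. TAATTA was in 4 of 8 windows (50%, 15.7 to 84.3, exact binomial interval, counting error only), against 34.3% of nuclear peaks and 6.5% of flanks. The 4 were both Klf4 peaks and the paired maxima of Klf5 at 41.3 and 41.5 kb, with the closest TAATTA 26.5 bp from the maximum at 41.5 kb. The interval holds the share over all nuclear peaks, but it counts the paired Klf5 maxima, which share a region, as separate peaks. The scrambled sequence TTAAAT was also in 4 of 8, against 17.2% of nuclear peaks. The number of cores ran from 1 at Klf2 to 8 at the upstream Klf4 peak, with a median of 2.5, against 3 over all nuclear peaks, and the 2 strongest Klf5 peaks had 2 each. Neither of these had TAATTA.

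Pairs of cores were counted at spacings chosen with earlier results of the list known. ATTA followed by TAAT with 3 bases between was in 0 of 8 windows, against 4.93% of nuclear peaks, and with 10 bases between in 0 of 8, against 2.93%. TAAT followed by TAAT with 5 bases between was in 1 of 8, the Klf5 peak at 41.3 kb, against 6.03%. A count of 0 of 8 allows a share of up to 36.9%, so shares such as these were not detectable with 8 peaks.

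STAT sites were counted because LIF was given before harvest and Klf4 is known as a STAT3 target. TTCNNNGAA was in 0 of 8 windows, against 5.01% of nuclear peaks and 5.85% of flanks, and the strict TTCCNGGAA in 0 of 8, against 0.733%. In the deposited 500 bp windows TTCNNNGAA was present at 2 of 8 peaks, 174 bp from the maximum upstream of Klf4 and 166 bp from that at 41.3 kb from Klf5, while 13.7% of nuclear peaks had it. The list holds peaks of the fusion only, so it gives no STAT3 binding at these sites.

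Other factor sites differed between the peaks. CACCC, the box that Krüppel-like factors themselves bind, was in 5 of 8 windows, against 48.2% of nuclear peaks, and the GC box GGGCGG was in 0 of 8, against 7.99%. The octamer ATGCAAAT, a POU factor site, was in 1 of 8, against 4.24%. It lay 57.5 bp from the Klf5 maximum at 41.5 kb. The peak upstream of Klf2 that goes to Gm10282 also had an octamer, 31.5 bp from its maximum, while its closest core was 94.5 bp away, farther than at any of the 8 peaks. The E-box CAGCTG was in 1 of 8, the Klf5 peak at 50.4 kb, against 13.9%, and the SOX site ATTGTT in 1 of 8, the Klf2 peak, against 14.3%. The GC content of the 8 windows ran from 40.5% to 55% with a median of 45%, against a median of 48% over all nuclear peaks, and the Klf2 window was the highest.

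**Figure D3:**
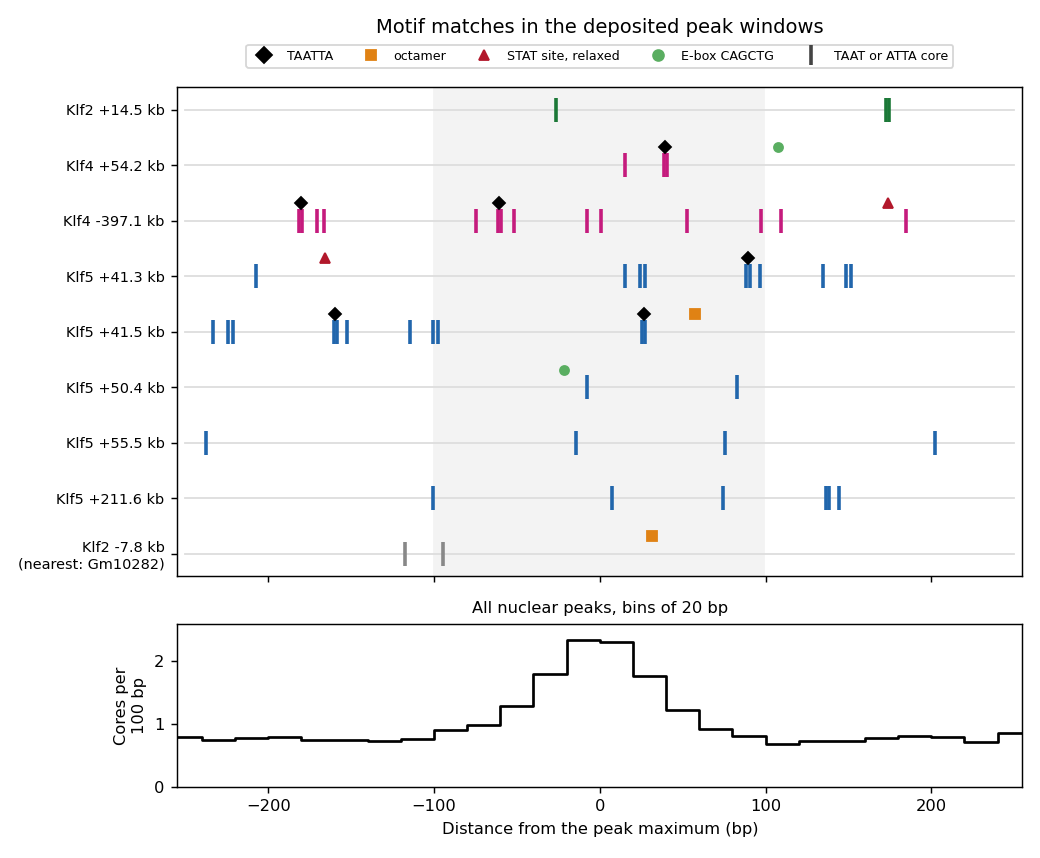
The upper panel places TAAT or ATTA cores (vertical ticks), TAATTA, octamers, relaxed STAT sites and E-boxes by distance from the maximum in bp, 1 line per peak, with the 200 bp window shaded. The lower panel gives the mean number of cores per 100 bp over all nuclear peaks. Each of the 8 Klf peaks has a core within 26.5 bp of its maximum, the bottom line (7.75 kb upstream of Klf2) has none closer than 94.5 bp, and the full 500 bp lines of the Klf5 peaks at 41.3 and 41.5 kb overlap and share the TAATTA 89.5 bp right of one maximum and 159.5 bp left of the other, while their shaded 200 bp windows do not overlap and hold different TAATTA sites.

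The rest of the Krüppel-like and Sp family gives the setting of these genes. Among 23 other Klf and Sp genes, 7 had a peak (30.4%), with 13 peaks in all, against the 8.16% of protein-coding genes given above. In the 10% of genes with the largest nearby sequence, 6 of the 8 of these family members that belong there had a peak, against 26.5% of the protein-coding genes there. Outside that group 1 of 15 did, against 6.14% of protein-coding genes. The strongest was Klf9, a hormone-responsive member, with a score of 68.25 at 65.1 kb upstream. Klf12, a repressor, had 3 peaks up to 50.85, and Klf13 had 3 up to 42.56 at 8.71 kb upstream. Klf6 had 2 peaks up to 44.43 at 164 kb upstream, and Sp4 had 1 of 45.23 at 228 kb upstream. Klf7, known for axon growth, had 1 of 32.39 at 69.7 kb upstream. Klf3 had 1 of 31.31 in an intron, 3.84 kb upstream of its nearest start, which is not its outermost one. The best Klf5 score thus lay between those of Klf9 and Klf12, and the best of Klf2 and Klf4 between those of Klf13 and Klf7. No other Klf or Sp gene had as many as the 5 peaks of Klf5. With the 3 genes described here included, 9 of 17 Klf genes had a peak, against 1 of 9 Sp genes (11.1%).

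**Figure D4:**
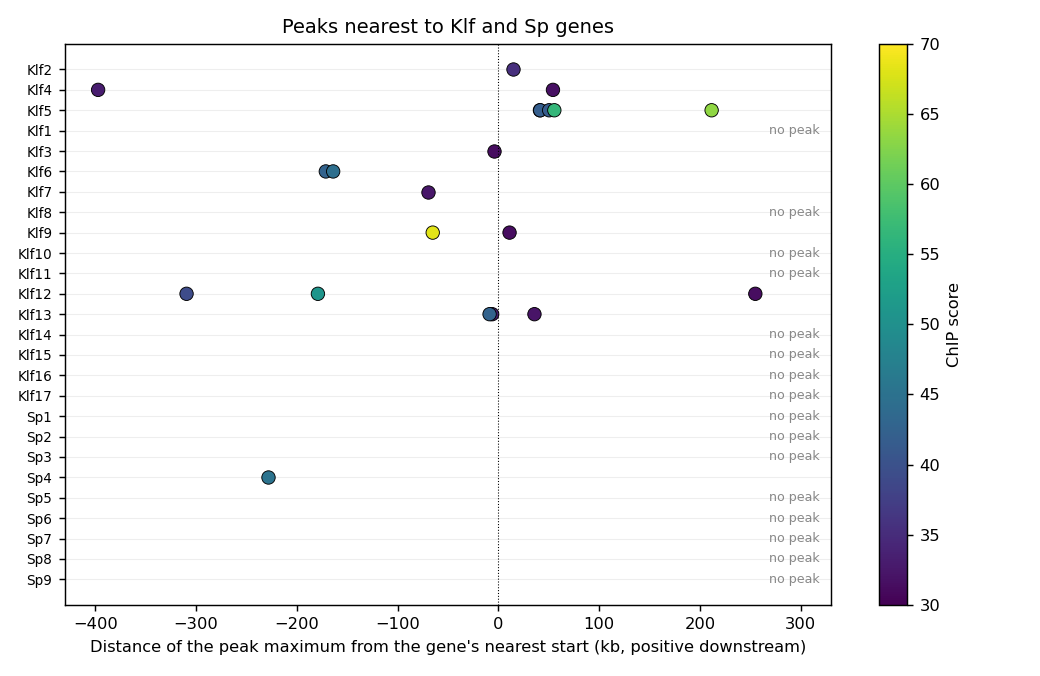
Each point is a peak, placed by its distance in kb from the nearest start of the gene on its line and coloured by ChIP score, with Klf2, Klf4 and Klf5 at the top. The 5 points of Klf5 all lie to the right of 0, and 16 genes have no peak.

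Other genes of the pluripotency network and of LIF signalling were also counted, from a list drawn up with earlier results of these data known. Of 21 such genes other than the 3 Klf genes, 12 had a peak (57.1%). In the 10% of genes with the largest nearby sequence, 5 of 5 had one, against 26.5% of the protein-coding genes there. Outside that group 7 of 16 had one, against 6.14% of protein-coding genes. The median of their best scores was 55.14, against 63.43 for Klf5, 35.33 for Klf2 and 33.19 for Klf4. Of the receptor genes, Lifr, for the LIF receptor, had 143.19 at 13.8 kb, and Il6st, for its partner gp130, had 48.98 at 75.6 kb. Prdm14 (86.18), Sox2 (84.04), Tbx3 (70.93), Pim1 (57.81), Esrrb (56.21) and Zfp42 (54.07) followed Lifr in score. Nr5a2 had 40.95, Sall4 40.68, Myc 37.2 and Gbx2 33.72, the last at 0.703 kb from its start. Stat3, Socs3, Jak1, Jak2, Nanog, Pou5f1, Dppa3, Nr0b1 and Tfcp2l1 had none. Klf5 had as many peaks as Esrrb and Sox2, 5 each, but in 4 regions, against 5 regions each for Esrrb and Sox2. Klf4 was the gene whose best peak lay farthest from a start.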

How the data were processed

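Reads were aligned with BWA 0.5.8a to mm9, per the submitters' processing notes. No label or header names the peak caller, its threshold or whether sets were pooled. The authors' deposited list held 2455 peaks, with a ChIP score and a background score per peak (unit score, scale not stated per the file headers) and a whole-number count of ChIP tags per region, deposited without normalization. A single mitochondrial peak was left out. Each peak maximum was assigned to the nearest of the starts of 22367 protein-coding genes (GENCODE M1, Ensembl 65, mm9). Coordinates are 1-based, and distances are negative upstream. Sequence was read from the mm9 genome, and motifs were matched on both strands. All 50 list entries matched a symbol, Tfcp2l1 by its older name. The members, lists, motifs and choices here were taken with earlier results of these data known. Named were the 3 genes with every peak, list genes with a peak, and neighbours of the peaks. Since members were chosen for their peaks and no column gives a value per library, nothing was tested. Intervals are 95% Poisson or exact binomial and cover counting error only. Assignment and motif matching were tested on planted positions. Python 3.11.15, pandas 2.3.3 and scipy 1.17.1 were used.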

Additional observations from a re-analysis of the deposited data

How the results depend on the processing

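No paired analysis was possible because the deposited list gives no value per library or set, and for the same reason leaving out a library was not possible. Of 31 recomputed values, 23 stayed within 1.5 times the reported value. The count of 8 peaks became 1 with all annotated genes, 0 within 10 kb of a start, 4 among the top 50% of peaks by score and 2 among the top 25%. These settings admit more genes or fewer peaks by construction. It was 6 within 100 kb, 7 by gene body, 7 with 1 peak per region and 9 without Gm10282. The median background share of 5.62% became 0% for the peaks outside chromosome 14 and 7.83% with 1 added to each score. TAATTA was at 2 of 8 peaks in 100 bp windows, and the relaxed STAT site at 2 of 8 in the wider 500 bp windows. With all annotated genes, 4 Klf and Sp genes had a peak, against 10. The settings without Gm10282, without chromosome 14 or with starts of protein-coding transcripts only (8 peaks) were chosen after seeing the data. Depth per library is unknown, and 8 peaks limit every share given.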
